A study of Mus musculus with 19 samples.

Results

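The nuclear genes for complex III, complex IV and ATP synthase of the mitochondrial respiratory chain were taken from a gene count table of mouse heart. A gene was a member if its symbol began with Uqcr (complex III), with Cox and a digit from 4 to 8 (complex IV), or with Atp5 (ATP synthase), and 1 pseudogene name was left out. That gave 43 members among 25239 symbols: 8 of complex III, 18 of complex IV and 17 of ATP synthase. The study set wild type mice beside mice lacking Mcm8, a gene of the minichromosome maintenance family, and treated both with phosphate-buffered saline (PBS) or with LCWE. LCWE is a cell wall extract of Lactobacillus casei that produces a vasculitis used as a model of Kawasaki disease. The 4 groups were wild type with PBS (Wt_PBS, 5 libraries), Mcm8 knockout with PBS (Mcm8Ko_PBS, 3), wild type with LCWE (Wt_LCWE, 6) and Mcm8 knockout with LCWE (Mcm8Ko_LCWE, 5). The labels name heart tissue for every library and give no allele, strain, sex or age. They do not say that libraries came from separate animals, so p-values measure the spread between these libraries, which may be technical. Xist, the RNA of the inactive X chromosome, was at 0.350 to 1.95 CPM in 6 libraries and at 171 to 250 CPM in the other 13. The 6 were 0 of 5 in Wt_PBS, 1 of 3 in Mcm8Ko_PBS, 1 of 6 in Wt_LCWE and 4 of 5 in Mcm8Ko_LCWE, so sex moved with the groups.

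The 19 libraries held 11853233 to 16145911 counts, and the 43 members together took 3.62% to 5.54% of them. Levels are normalised CPM, counts scaled to a common depth with TMM factors. Mcm8 itself stood at 2.60 to 5.19 CPM in the 11 wild type libraries and at 0.130 to 0.910 CPM in the 8 knockout libraries, without overlap. The 8 markers of heart muscle cells summed to 76030 to 114500 CPM per library, so the defining markers of the labelled tissue were present. Markers of other tissues varied between libraries. Atrial markers (3 genes) summed to 1.657 to 187.2 CPM and liver markers (3 genes) to 1.92 to 408.2 CPM. Skeletal muscle markers (7 genes) summed to 138.1 to 727.3 CPM, with Tnnt3 among them at 1.415 to 56.73 CPM. The part of such tissue in the results below was not tested. Symbols of the mitochondrial genome were not analysed here, so the members encoded there (cytochrome b, the catalytic core of complex IV and 2 subunits of ATP synthase) are outside this account.

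Complex III passes electrons from ubiquinol to cytochrome c, complex IV passes them on to oxygen, and both pump protons across the inner mitochondrial membrane. ATP synthase lets the protons return and makes ATP with the energy released, the main source of ATP for contraction of heart muscle. Several subunits of complex IV exist in a ubiquitous form and in a form made in heart and skeletal muscle: Cox6a1 and Cox6a2, Cox7a2 and Cox7a1, Cox8a and Cox8b, where the second of each pair is the muscle form.

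The 250 bases upstream of the RefSeq start are shown for 4 of these isoform genes (build GRCm38.p6, each 5′ to 3′ on the gene's own strand), since the results below turn on them. Cox6a1 had the largest fitted log2 fold change in wild type hearts given LCWE, Cox7a1 had the smallest p between the genotypes under LCWE, Cox7a2 is its ubiquitous counterpart, and Cox8b is the muscle form of the pair with the smallest p for isoform balance. The regions lie at chr5:115348959-115349208 on the minus strand (Cox6a1), chr7:30183921-30184170 on the plus strand (Cox7a1), chr9:79759854-79760103 on the minus strand (Cox7a2) and chr7:140900447-140900696 on the minus strand (Cox8b). Capitals mark a match, on either strand, to one of 6 motifs searched.
Cox6a1: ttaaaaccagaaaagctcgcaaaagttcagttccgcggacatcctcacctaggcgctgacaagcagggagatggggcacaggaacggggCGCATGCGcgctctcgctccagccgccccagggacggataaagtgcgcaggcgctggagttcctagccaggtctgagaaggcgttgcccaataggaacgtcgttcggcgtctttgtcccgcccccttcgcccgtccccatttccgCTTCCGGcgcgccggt
Cox7a1: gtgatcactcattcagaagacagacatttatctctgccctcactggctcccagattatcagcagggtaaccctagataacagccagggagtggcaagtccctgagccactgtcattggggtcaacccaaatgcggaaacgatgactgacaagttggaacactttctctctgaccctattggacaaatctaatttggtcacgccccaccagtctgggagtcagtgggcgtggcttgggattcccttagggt
Cox7a2: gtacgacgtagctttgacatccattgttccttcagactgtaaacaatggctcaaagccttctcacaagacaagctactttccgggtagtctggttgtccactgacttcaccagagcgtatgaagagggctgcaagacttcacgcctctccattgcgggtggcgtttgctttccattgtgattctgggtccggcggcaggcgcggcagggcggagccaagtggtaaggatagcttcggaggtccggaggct
Cox8b: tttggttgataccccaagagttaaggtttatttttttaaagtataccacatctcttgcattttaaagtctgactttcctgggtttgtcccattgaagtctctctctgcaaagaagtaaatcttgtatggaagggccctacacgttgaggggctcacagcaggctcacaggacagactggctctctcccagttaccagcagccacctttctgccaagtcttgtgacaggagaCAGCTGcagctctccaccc
The motif searched for NRF1, a factor of nuclear genes for mitochondrial proteins, was GCATGCG, the middle of its palindromic site. Both strands of that site match, in overlap, in the 8 bases in capitals that Cox6a1 carries from 161 bases before its start. An upstream region was found for 33 of the 43 members, and 4 of those 33 (12.1%) held this motif, against 3.07% of all 27025 promoters of that length: Cox6a1, Atp5g2, Atp5k and Atp5l. For ETS factors, a family of activators, the letters were CCGGAAG, which Cox6a1 carries on the other strand 16 bases before its start. They lay in 7 of 33 members (21.2%) against 7.05% of all promoters. The E-box searched was CAGCTG, a site of muscle regulatory factors, and Cox8b has it 19 bases before its start. It lay in 2 of 33 members (6.1%) against 12.77%. The core site of the ERR nuclear receptors, spelled AAGGTCA, was found in 2 members (6.1%) against 4.05%. For the TATA box the letters TATAAA were found in 3 members (9.1%) against 12.97%. The letters searched for the factor YY1 were AAGATGG, found in 0 of 33 members against 4.53%. Cox7a1 and Cox7a2 held none of the 6. These are matches of letters, not tested binding sites.

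Levels spanned a wide range. Divided by transcript length, the highest member of ATP synthase was Atp5b, the catalytic beta subunit, at a mean of 3654 CPM per kilobase over 19 libraries. Cox4i1, the common isoform of subunit 4, led complex IV at 3491 CPM per kilobase, closely followed by Cox6a2 at 3445. With its longest principal transcript Cox4i1 came to 3400, below Cox6a2. In complex III the small subunit Uqcrq led at 2312 CPM per kilobase with the shortest of its principal transcripts, and with the longest it came to 616, below the core protein Uqcrc1 at 1224. The lowest member of complex III was Uqcrc2, the second core protein, at 477 CPM per kilobase. In ATP synthase it was Atp5k, a membrane subunit, at 507, although Atp5md, another one, came to 85.9 with its longest transcript. Cox4i2, the second isoform of subunit 4, had a mean of 14.1 CPM per kilobase and Cox6b2, the testis isoform of subunit 6b, 2.87. Cox7b2 had 0 to 5 counts, with 9 libraries at 0, and Cox8c had 0 counts in all 19 libraries, where a count of 0 allows up to 3 counts per library. Those 2 did not pass the filter on low counts, which left 41 members among 14301 genes tested.

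A pair of libraries stood apart from the rest: Wt_LCWE replicates 2 and 3. The 18 members of complex IV summed to 16980 CPM in Wt_LCWE replicate 2 and 18010 CPM in replicate 3, and lay between 8858 and 12670 CPM in the other 17 libraries. ATP synthase members summed to 28080 and 30800 CPM in this pair against 21700 to 27160 CPM elsewhere, and complex III members to 8448 and 9061 CPM against 5559 to 7864 CPM. The summed level of complex IV divided by that of ATP synthase was 0.605 and 0.585 in the pair and 0.408 to 0.517 in the other libraries. The ratio of complex III to ATP synthase was closer to the others, 0.301 and 0.294 in the pair and 0.247 to 0.290 elsewhere.

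**Figure D1:**
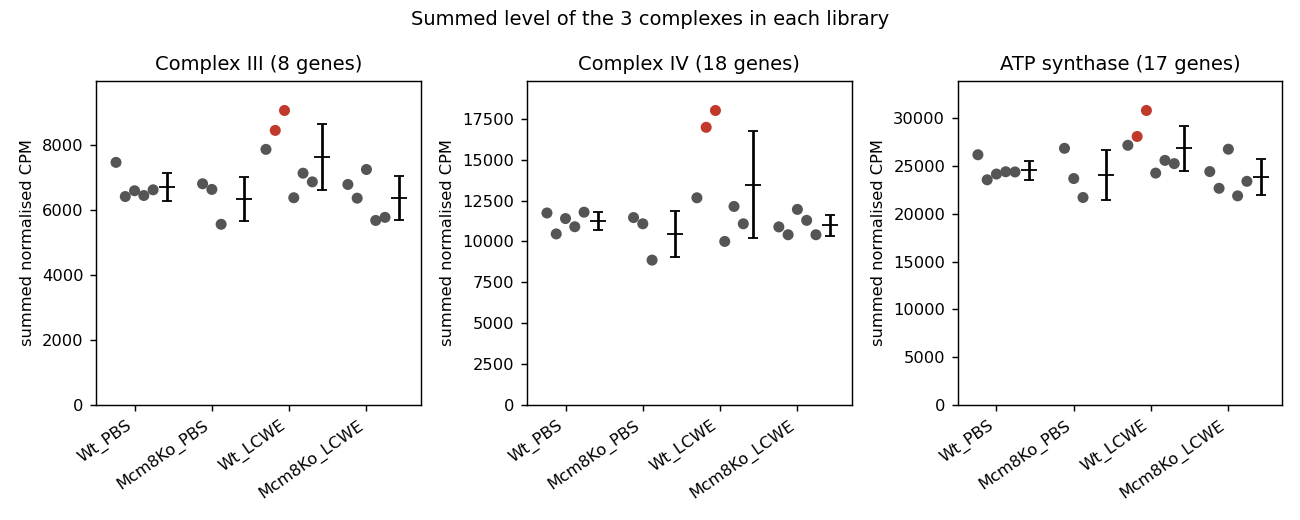
Summed normalised CPM of the 8, 18 and 17 members of each complex in every library (points, Wt_LCWE replicates 2 and 3 in red) with the group mean and SD (bars beside the points), on axes starting at 0. The 2 red libraries reach 16980 and 18010 CPM for complex IV, above the 17 others.

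Within the pair the members did not move alike. The 6 core members are the large catalytic and core proteins Uqcrc1, Uqcrc2, Uqcrfs1 (the Rieske iron-sulfur protein), Atp5a1, Atp5b and Atp5c1. None is in complex IV. They also have the longest coding sequences, 822 to 1659 nt against at most 768 nt in other members, so role and length cannot be told apart. Measured as log2 CPM minus the Wt_PBS mean, the median deviation of the core members was -0.02 in replicate 2 and 0.10 in replicate 3, and that of the 35 other members 0.71 and 0.77. The core members differed among themselves. Atp5c1, the gamma subunit, was at 1527 and 1777 CPM in the pair against 1087 to 1402 CPM elsewhere, while Atp5a1 (5035 and 5461 CPM) and Uqcrc1 (1800 and 1901 CPM) lay below every Wt_PBS library. In the other 17 libraries the 35 other members had medians from -0.31 to 0.25. Other values moved with the pair: the median deviation of 89 cytosolic ribosomal protein genes was 0.87 and 0.94, and that of 905 genes with a coding length under 450 nt was 0.52 and 0.64. The part of these in the result was not tested. Counts of Rn45s, the ribosomal RNA precursor, were 1841 and 1257 CPM in the pair and 2374 CPM in Wt_LCWE replicate 1, against 437 to 740 CPM elsewhere. Leukocyte markers (6 genes, none at 0 in all libraries) summed to 426.7 and 532 CPM in the pair. The sums were 252.1 to 426.8 CPM in the other Wt_LCWE libraries and 223 to 275 CPM in Wt_PBS. Smooth muscle markers (3 genes) summed to 693 and 862 CPM in the pair and to 264 to 573 CPM in Wt_PBS. High sums were not limited to the pair, with 735.7 CPM in Wt_LCWE replicate 1 and 765 to 879 CPM in Mcm8Ko_LCWE replicates 1 to 3. Most of the sum in the pair was Acta2, at 595.2 and 786.5 CPM. Myh11 went the other way, at 44.9 and 31.12 CPM in the pair against 55.65 to 117.4 CPM in Wt_PBS. Tagln was at 52.7 and 44.55 CPM in the pair, within the 31.03 to 68.37 CPM of Wt_PBS. The part of either cell type was not tested. Heart muscle cell markers summed to 97500 and 108200 CPM in the pair, against 103900 to 114500 CPM in the other Wt_LCWE libraries. Single markers went both ways. Ryr2 (586.8 and 650.7 CPM) and Ttn (2629 and 2618 CPM) were lower in the pair than in every other library. Myl2 (14600 and 15110 CPM) and Tnni3 (7807 and 9234 CPM) were higher than in every other library. In bulk tissue, fewer cells of a type and less RNA per cell cannot be told apart. The fits and tests below that use Wt_LCWE were therefore also run without this pair.

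**Figure D2:**
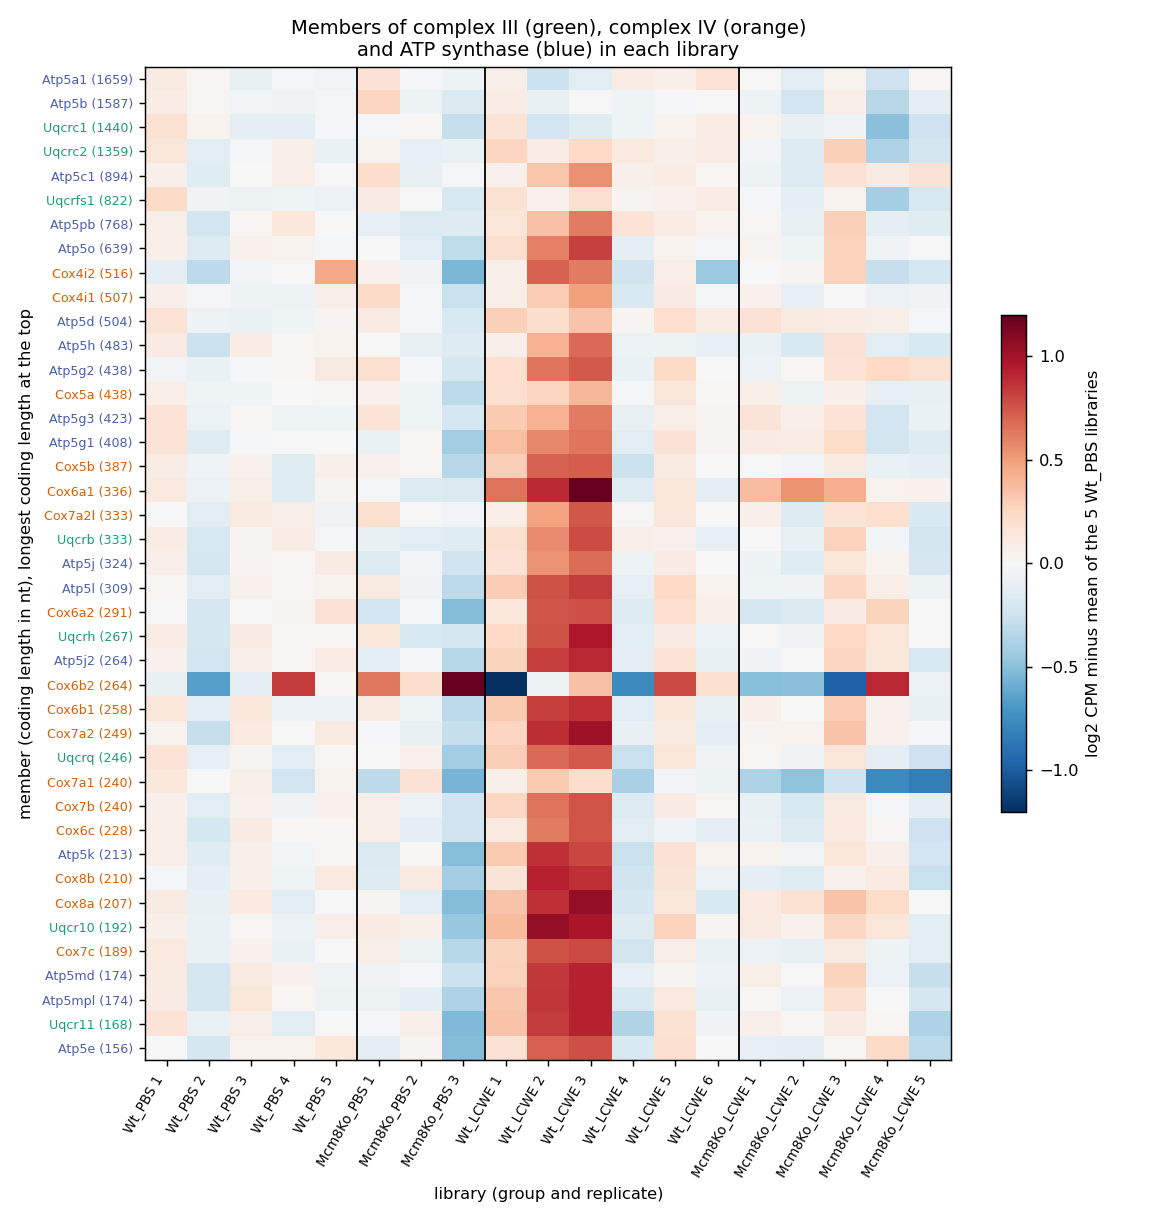
Each of the 41 members tested (rows, sorted by coding length, longest at the top) in each of the 19 libraries (columns), coloured by log2 CPM minus the mean of the 5 Wt_PBS libraries. Most rows below the core members are red in Wt_LCWE 2 and Wt_LCWE 3, while the row of Cox7a1 is blue in the 5 Mcm8Ko_LCWE libraries.

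The first comparison asked what LCWE did in wild type hearts. No member passed an adjusted p of 0.05 in edgeR's quasi-likelihood test, where the background was 0% of 14301 genes called. Of the 41 members 38 had a fitted log2 fold change above 0, against a background of 51.5% of all genes, and the median was 0.30 against 0.01 for all genes. At an unadjusted p under 0.05, 19 members were higher and 0 lower, against a background of 4.59% higher. DESeq2 and limma-voom also called 0 members, with 27 and 6 higher at an unadjusted p under 0.05. The 3 complexes had like medians: 0.30 for complex III (7 of 8 above 0), 0.30 for complex IV (15 of 16) and 0.30 for ATP synthase (16 of 17).

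The 3 smallest p-values belonged to small subunits. Uqcr10, a small subunit of complex III, was at 432, 435, 463, 476 and 483 CPM in Wt_PBS and at a lowest of 410, a median of 573 and a highest of 951 CPM in Wt_LCWE. The groups overlapped, and replicates 2 (951 CPM) and 3 (903 CPM) of Wt_LCWE were the highest. Its log2 fold change was 0.50 ± 0.18 (SE), with an edgeR adjusted p of 0.772 and an unadjusted p of 0.0126. Cox6a1, the ubiquitous subunit 6a, was at 130 to 157 CPM in Wt_PBS and at 130, 133.7, 160, 227, 268 and 346 CPM in Wt_LCWE, a log2 fold change of 0.54 ± 0.20 with the same edgeR adjusted p. Atp5l, subunit g in the membrane part of ATP synthase, was at 622 to 709 CPM in Wt_PBS and had a lowest of 638, a median of 824 and a highest of 1218 CPM in Wt_LCWE. Its log2 fold change was 0.39 ± 0.15 (edgeR adjusted p = 0.772). By contrast the median of the 6 core members was 0.05, with 4 above 0 and none at an unadjusted p under 0.05, against 0.31 and 19 for the 35 others. Atp5b, at 6937 to 7606 CPM in Wt_PBS, ranged from 6717 to 7602 CPM in Wt_LCWE, and Atp5a1, the alpha subunit, went from 5666 to 6478 CPM in Wt_PBS to 5035 to 6723 CPM.

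Without Wt_LCWE replicates 2 and 3 the fitted values lay near 0. The median log2 fold change was 0.05, with 34 of 41 members above 0 against a background of 50.9% of 14222 genes, and 0 members had an unadjusted p under 0.05. Complex III was then at 0.05, complex IV at 0.04 and ATP synthase at 0.06. Uqcr10 came to 0.14 ± 0.12, Cox6a1 to 0.16 ± 0.14 and Atp5l to 0.12 ± 0.10, each with an edgeR adjusted p of 1.0. Across the 41 members, log2 fold change and coding length had a Spearman rank correlation of -0.68 with all libraries and of 0.26 without the pair, while over 13617 and 13556 genes with a known coding length the values were -0.40 and -0.09. These correlations describe genes that share the same libraries and are not tests.

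**Figure D3:**
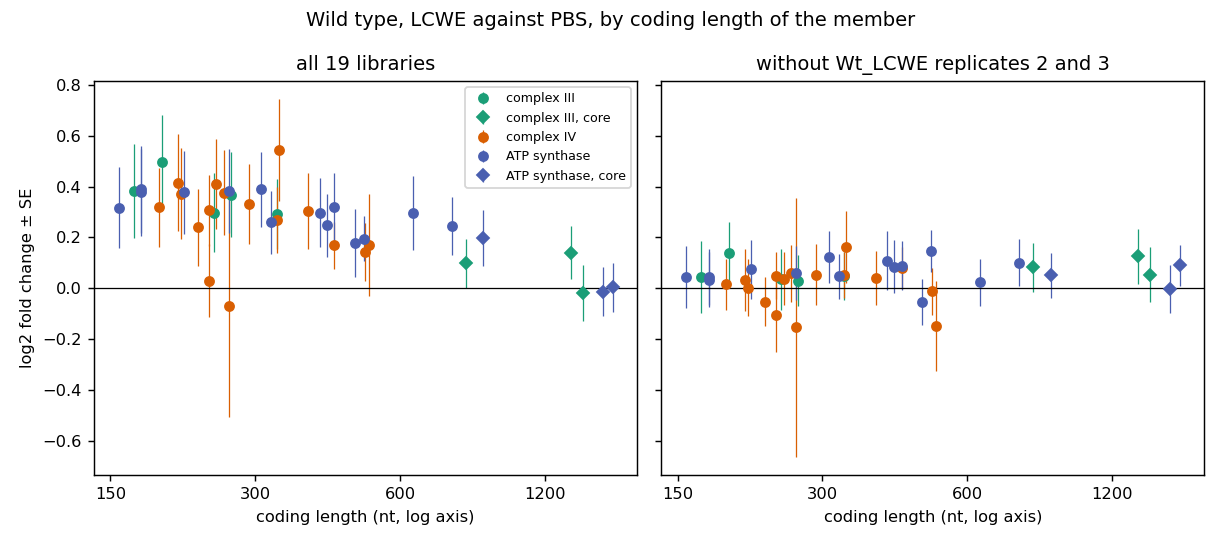
Fitted log2 fold change of LCWE against PBS in wild type (vertical axis, bars are SE) against coding length (horizontal log axis) for the 41 members, with the 6 core members as diamonds. With all 19 libraries most of the shortest members lie near 0.3 to 0.5, but Cox7a1 (240 nt) lies at 0.03 and Cox6b2 (264 nt) at -0.07. The highest is Cox6a1 (336 nt) at 0.54. Without Wt_LCWE replicates 2 and 3 the members lie between -0.15 and 0.16.

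Sample numbers in the labels fall into ranges, under 100, 100 to under 200 and 200 and above, whose meaning the labels do not give. Within the range 100 to under 200 (4 Wt_PBS, 1 Mcm8Ko_PBS, 3 Wt_LCWE including the pair, 3 Mcm8Ko_LCWE), edgeR called 25 of 41 members higher with LCWE in wild type, against a background of 5.21% of 14747 genes called higher. They were 4 members of complex III, 10 of complex IV and 11 of ATP synthase, and 0 of the 6 core members. Cox6a1 reached a log2 fold change of 0.93 ± 0.13 (adjusted p = 0.00993), Uqcr10 0.82 ± 0.14 (0.013) and Cox8a, the ubiquitous subunit 8, 0.75 ± 0.15 (0.0174). In this subset 2 of the 3 Wt_LCWE libraries are the pair, so the range and the pair cannot be told apart.

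In Mcm8 knockout hearts 0 of the 41 members passed for LCWE against PBS, against a background of 2.9% of genes called. A total of 32 had a fitted value above 0 against a background of 50.9%, with a median of 0.11 against 0.01 for all genes, and no member reached an unadjusted p under 0.05; DESeq2 also gave 0 and limma-voom 1, lower. Without the Wt_LCWE pair, which changes the shared spread, 3 members did so (Cox8a and Cox6a1 higher, Cox7a1 lower), with a lowest adjusted p of 0.107. Complex III had a median of 0.09, complex IV 0.07, ATP synthase 0.11 and the 6 core members -0.08. Without Mcm8Ko_PBS replicate 3 the 3 complexes came to -0.05, -0.05 and 0.04. The smallest p belonged to Cox6b2, at 1.37, 1.89 and 3.24 CPM in Mcm8Ko_PBS and 0.525 to 2.30 CPM in Mcm8Ko_LCWE, a log2 fold change of -0.97 ± 0.51 (edgeR adjusted p = 0.251). Its counts were low, 5 to 43 over all 19 libraries. Next came Cox7a1 at -0.32 ± 0.17 (adjusted p = 0.265) and Cox6a1 at 0.42 ± 0.24 (adjusted p = 0.31). The value of Cox7a1 was -0.094 without Mcm8Ko_PBS replicate 2 and lay between -0.471 and -0.06 over 30 alternatives. Cox6a1 was at 128, 128 and 143 CPM in Mcm8Ko_PBS and at 149, 150, 186, 194 and 210 CPM in Mcm8Ko_LCWE, without overlap. Leukocyte markers summed to 124 to 288 CPM in Mcm8Ko_PBS and 292 to 865 CPM in Mcm8Ko_LCWE, and smooth muscle markers to 202 to 214 and 225 to 879 CPM. Of the smooth muscle genes, Acta2 was at 98.86 to 111.5 and 118.8 to 737 CPM, while Myh11 and Tagln overlapped between these groups. The part of either cell type in these values was not tested.

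Under PBS no member passed between knockout and wild type in edgeR, against a background of 0.601% of genes called. A total of 36 of 41 lay below 0, where 49.8% of all genes did, and the median was -0.10. The 35 members outside the core had a median deviation of -0.31 in Mcm8Ko_PBS replicate 3, against 0.01 and -0.04 in replicates 1 and 2. Complex III had a median of -0.09, complex IV of -0.10 and ATP synthase of -0.11, and without that library they were 0.00, -0.01 and -0.04. Smooth muscle markers summed to 202 to 214 CPM in Mcm8Ko_PBS against 264 to 573 CPM in Wt_PBS, without overlap. Of these genes only Acta2 was without overlap (98.86 to 111.5 against 177.8 to 450.7 CPM). Myh11 (55.34 to 66.51 against 55.65 to 117.4 CPM) and Tagln (35.04 to 44.81 against 31.03 to 68.37 CPM) overlapped. Heart muscle cell markers summed to 76030, 83320 and 95690 CPM against 91920 to 105700 CPM, and single genes went both ways. Myh6, the largest part of the sum, was at 37080 to 51460 against 44110 to 55600 CPM. Actc1 was at 4530, 6921 and 11280 against 11080 to 14510 CPM. Tnnt2 was at 9624, 12570 and 16690 against 10190 to 11470 CPM. Ryr2, at 917.1 to 1086 CPM, lay within the 868.7 to 1420 CPM of Wt_PBS. The part of either cell type in these values was not tested. The 3 smallest p-values were those of Cox6b2 (log2 fold change 0.79 ± 0.50, adjusted p = 0.386), Cox6a2 (-0.24 ± 0.19, 0.494) and Cox7a1 (-0.20 ± 0.18, 0.531). Cox6a2, the muscle form of subunit 6a and the most abundant member of complex IV after Cox4i1, was at 1920 to 2489 CPM in Wt_PBS and at 1542, 1881 and 2192 CPM in Mcm8Ko_PBS.

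Between the genotypes under LCWE all 41 fitted values lay below 0, against a background of 49.3% of genes, with a median of -0.30 against 0.00 for all genes. No member passed in edgeR, against a background of 0.00699% of genes called, a single gene, which was Mcm8, and DESeq2 and limma-voom called 0 as well. At an unadjusted p under 0.05, 19 members were lower in the knockout, against a background of 3.12%. Complex III had a median of -0.30, complex IV of -0.31 and ATP synthase of -0.26. After leaving out Wt_LCWE replicates 2 and 3, 34 of 41 were below 0, against a background of 48.9%, the median was -0.08, and 3 members (Cox7a1, Uqcrfs1 and Uqcrc1) had an unadjusted p under 0.05. The 6 core members then had a median of -0.20 and the 35 others of -0.07. The comparison shares its wild type libraries with that of LCWE against PBS, so the pair enters both. Within sample numbers 100 to under 200, 0 members were called lower, against a background of 0%.

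**Figure D4:**
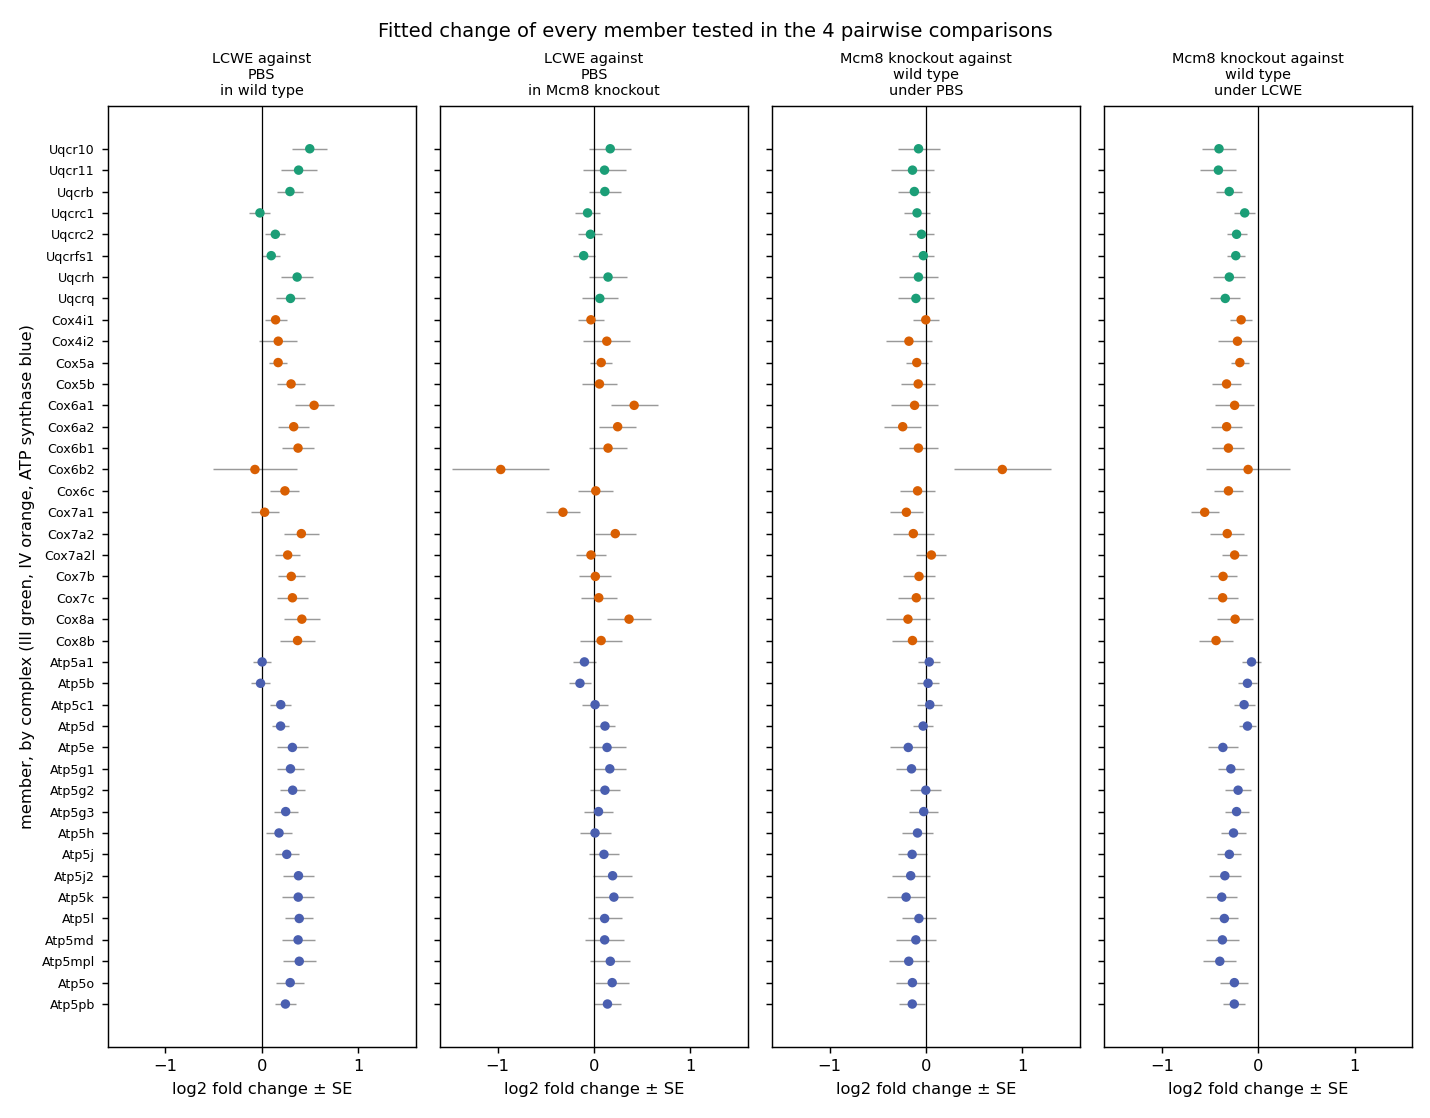
Fitted log2 fold change with its SE for all 41 members tested in the 4 pairwise comparisons, with complex III in green, complex IV in orange and ATP synthase in blue. In the panel of the genotypes under LCWE every member lies below 0, and Cox7a1 at -0.56 is the lowest.

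Cox7a1, the muscle form of subunit 7a, was the member with the smallest p in that comparison, 19th of 14301 genes. In Wt_PBS it was at 519, 605, 627, 639 and 663 CPM and in Mcm8Ko_PBS at 413, 490 and 686 CPM. With LCWE it was at 465, 583, 597, 636, 705 and 754 CPM in wild type and at 343, 357, 435, 472 and 513 CPM in the knockout. The last 2 groups overlapped through Wt_LCWE replicate 4 (465 CPM), which lay below 2 of the knockout libraries. The log2 fold change was -0.56 ± 0.15, with an unadjusted edgeR p of 0.00107 and an adjusted p of 0.697, so the call was not made. DESeq2 gave it an adjusted p of 0.0927, the lowest of 30 alternatives, and limma-voom one of 0.917. Without the pair the fitted value was -0.44 ± 0.15, with an edgeR adjusted p of 0.554, while the median member came to -0.08. The difference between Cox7a1 and the other members was not tested. With the level of Y-linked genes as a covariate the value was -0.59 (edgeR adjusted p = 1.0). Cox7b, a small subunit, followed with -0.37 ± 0.14 (adjusted p = 0.833) and Cox8b with -0.44 ± 0.18 (0.851), but without the pair neither was among the 5 members with the smallest p.

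Whether LCWE acted differently in the 2 genotypes was asked by an interaction term. No member passed, against a background of 0%, and at an unadjusted p under 0.05 there were also 0 members by edgeR, DESeq2 and limma-voom. All 41 fitted values were below 0 with a median of -0.19, where 7566 of 14301 genes were below 0, and without the pair 26 of 41 were above 0. The smallest p-values were those of Cox7a1 (-0.35 ± 0.23, edgeR adjusted p = 0.704), Cox7a2l, a factor that joins complexes III and IV into supercomplexes (-0.30 ± 0.20, 0.719), and Uqcrfs1 (-0.20 ± 0.15, 0.739). Within sample numbers 100 to under 200 edgeR called 1 member lower, Atp5g2 at -0.70 ± 0.22 (adjusted p = 0.0486), against a background of 7.24% of genes called lower. That subset has 1 Mcm8Ko_PBS library, which the fit assumes to vary like the other groups.

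The balance between muscle and ubiquitous isoforms was measured as the log2 ratio of their levels per transcript length within each library, which cancels the library's scaling. The muscle form led in each pair and library. Cox6a2 made up 88.7% to 93.7% of its pair, Cox7a1 65.5% to 80.2% and Cox8b 65.7% to 74.0%. Cox4i1 made up 99.5% to 99.7% of the pair with Cox4i2. For Cox7a1 to Cox7a2 the log2 ratio was 1.52, 1.68, 1.70, 1.83 and 2.02 in Wt_PBS and 1.46, 1.47 and 2.01 in Mcm8Ko_PBS. It was 0.945, 1.17, 1.45, 1.55, 1.61 and 1.81 in Wt_LCWE, where the 2 lowest were replicates 3 and 2, and 0.93, 0.94, 1.16, 1.23 and 1.35 in Mcm8Ko_LCWE. All 5 knockout libraries with LCWE thus lay below all 3 with PBS, a mean difference of -0.53 with a two-sided exact permutation p of 0.0357, the smallest that 5 against 3 libraries allow, and 0.214 after Benjamini-Hochberg adjustment over 12 tests. In wild type the mean difference was -0.33 and the groups overlapped (exact permutation p = 0.0693, adjusted 0.214). Without the pair that difference was -0.14 (exact permutation p = 0.254, adjusted 0.61). Between the genotypes under LCWE the difference was -0.30 with overlapping groups (exact permutation p = 0.0909, adjusted 0.218). Without the pair, a choice made after seeing the data, it was -0.48, with an exact permutation p of 0.0159 and 0.143 after adjustment. The groups then did not overlap, but the pair held the 2 lowest Wt_LCWE ratios, so leaving it out took the overlap away. That p, the smallest that 5 against 4 libraries allow, therefore depends on the choice. Within sample numbers 100 to under 200 the difference was 0.02.

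For Cox8b to Cox8a the ratio was lower in Mcm8Ko_LCWE than in Wt_LCWE, 1.03 ± 0.09 (SD, 5 libraries) against 1.24 ± 0.12 (SD, 6 libraries), with an exact permutation p of 0.0173 and an adjusted p of 0.208. The groups overlapped, with 0.94 to 1.17 in the knockout and 1.08 to 1.39 in wild type. Without the pair the difference was -0.22 rather than -0.21 (exact permutation p = 0.0317, adjusted 0.143). For Cox6a2 to Cox6a1 the 4 differences in mean lay between -0.16 and -0.13, with adjusted exact permutation p-values of 0.658 to 0.671. None of the 12 tests passed after adjustment, with or without the pair. The group sizes allowed no p below 0.00433 (6 against 5 libraries) or 0.0357 (5 against 3), and none below 0.0159 without the pair. After adjustment over 12 tests, 1 such p alone would not pass, so the lack of calls cannot show that the balance was unchanged. The members of each pair share a library, and a lower ratio can come from either gene. In Mcm8Ko_LCWE against Mcm8Ko_PBS, Cox7a1 averaged 424 against 530 CPM and Cox7a2 324 against 278 CPM. For Cox7a1 the groups overlapped, at 343 to 513 against 413 to 686 CPM, with the highest value from Mcm8Ko_PBS replicate 2. For Cox7a2 they did not, at 299.6 to 385.1 against 250 to 298.3 CPM.

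**Figure D5:**
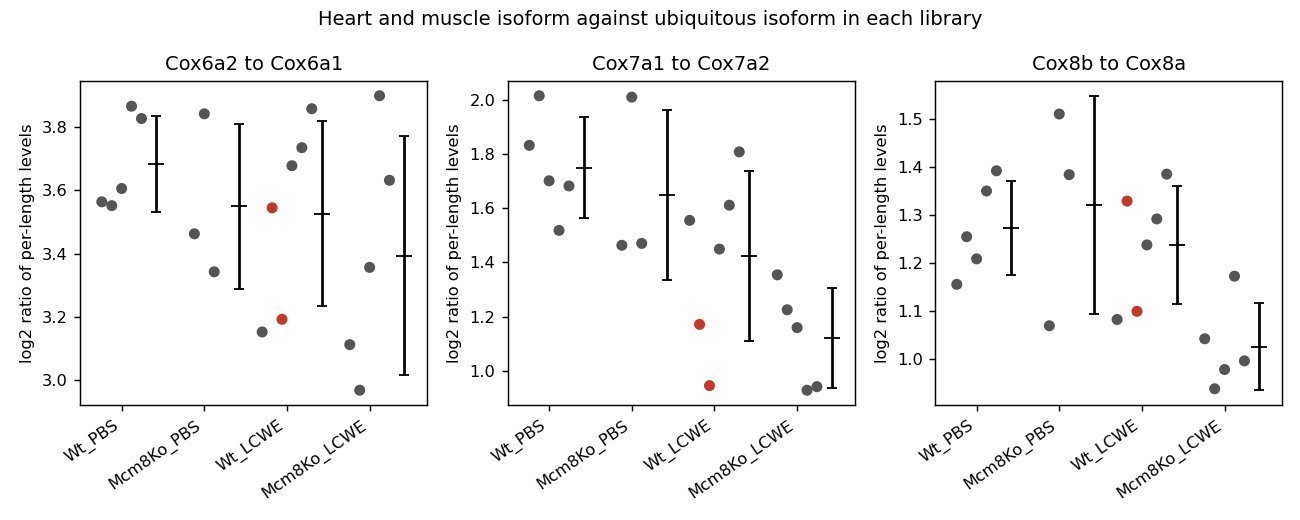
Log2 ratio of per-length levels of the muscle isoform to the ubiquitous isoform in each library (points, Wt_LCWE replicates 2 and 3 in red) with group mean and SD (bars). For Cox7a1 to Cox7a2 the Mcm8Ko_LCWE libraries lie between 0.93 and 1.35, below the 3 Mcm8Ko_PBS libraries (axes do not start at 0).

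Of the remaining members by role, the c ring of ATP synthase, the rotor that protons turn, is encoded by Atp5g1, Atp5g2 and Atp5g3, which specify the same mature subunit. Averaged over all libraries Atp5g1 stood at 2459, Atp5g3 at 1983 and Atp5g2 at 800 CPM per kilobase, but with the longest principal transcripts at 311, 1958 and 483, which changes their order. Atp5g2 ranged from 304 to 345 CPM in Wt_PBS, 278 to 368 in Mcm8Ko_PBS, 303 to 533 in Wt_LCWE and 305 to 378 in Mcm8Ko_LCWE. In this paragraph the pair, Wt_LCWE replicates 2 and 3, sets the upper ends in Wt_LCWE for Atp5g2, Uqcrh, Uqcrfs1, Cox7a2l, Cox4i1 and Cox4i2, and the lower end for Uqcrc1. The other 4 Wt_LCWE libraries had 303 to 377 CPM of Atp5g2. Uqcrh, the hinge protein of complex III that faces cytochrome c, was at 501 to 638 CPM in the 8 PBS libraries, at 529 to 1135 in Wt_LCWE (529 to 682 without the pair) and at 563 to 683 in Mcm8Ko_LCWE. Uqcrc1 was at 1955 to 2390 CPM in Wt_PBS, 1738 to 2127 in Mcm8Ko_PBS, 1800 to 2365 in Wt_LCWE (2028 to 2365 without the pair) and 1484 to 2169 in Mcm8Ko_LCWE, and Uqcrfs1 at 878 to 1081, 809 to 988, 944 to 1058 and 697 to 953 in the same order. The lowest values of both came from Mcm8Ko_LCWE replicate 4, whose 6 core members had a median deviation of -0.35 and whose ribosomal protein genes had one of 0.53. Cox7a2l was at 205 to 268 CPM outside Wt_LCWE and at 234 to 391.7 CPM within it, or 234 to 256 CPM without the pair. Cox4i1 was at 2107 to 2972 CPM outside Wt_LCWE and at 2229 to 3564 CPM within it, or 2229 to 2705 CPM without the pair. Cox4i2 lay between 6.78 and 16.4 CPM, or up to 13.7 CPM without the pair.

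Genes that work with these complexes were described from fixed lists. For the 45 complex I genes tested (48 listed), LCWE in wild type gave a median of 0.29, with 44 above 0 and 0 called. Over all genes 51.5% were above 0 and 0% called. Without the pair the complex I median was 0.07, with 41 above 0, against a background of 50.9%. Between the genotypes under LCWE it was -0.30, with 45 below 0 and 0 called, against backgrounds of 49.3% and 0.00699%. That median was -0.10 without the pair, with 40 below 0, against a background of 48.9%. Cytochrome c1 (Cyc1), the complex III subunit outside the symbol rule, had 0.14 ± 0.11 with LCWE in wild type (edgeR adjusted p = 0.876) and 0.11 ± 0.12 without the pair. Atpif1, the inhibitor of ATP synthase and likewise outside the rule, had 0.52 ± 0.22 (0.772), at 316 and 388 CPM in the pair and 313 CPM in Mcm8Ko_LCWE replicate 4 against 130 to 212 CPM elsewhere. Without the pair its value in wild type was 0.05 ± 0.15. With LCWE in the knockout Atpif1 had 0.53 ± 0.27 (edgeR adjusted p = 0.244), and 0.52 ± 0.16 without the pair (0.0573). Between the genotypes under LCWE it had -0.09 ± 0.22 (0.981), and 0.36 ± 0.15 without the pair (0.639). None of the 4 complex II genes, the 2 cytochrome genes, the 6 assembly genes of complex III, the 20 tested of complex IV or the 3 of ATP synthase was called in any of the 5 contrasts with all 19 libraries, where 0% to 2.9% of all genes were called. Without the Wt_LCWE pair edgeR called 3 assembly genes of complex IV higher with LCWE in the knockout, against a background of 2% of genes called higher in that fit. They were Cox16 (log2 fold change 0.53 ± 0.14, adjusted p = 0.0318), Coa6 (0.50 ± 0.13, 0.0327) and Coa3 (0.47 ± 0.13, 0.0359). Among 12 regulators of mitochondrial genes 1 was called, against backgrounds of 0.601% of genes (knockout against wild type under PBS) and 2.9% (LCWE in the knockout). This was Yy1, a zinc finger transcription factor. It was at 63.2, 85.0 and 100.8 CPM in Mcm8Ko_PBS and at 50.5 to 62.7 CPM in the other 16 libraries. It was higher in the knockout under PBS (log2 fold change 0.54 ± 0.12, edgeR adjusted p = 0.0468) and fell by 0.57 ± 0.12 with LCWE in the knockout (adjusted p = 0.0293). Without Mcm8Ko_PBS replicate 1 neither call held (adjusted p = 0.544 and 0.243), and the call under PBS was lost in 19 of 30 alternatives.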

How the data were processed

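The 19 mouse heart libraries were made from RNA amplified with a whole-transcriptome kit (Discover-sc WTA Kit V2), per the labels' protocols, a step that can favour some transcripts. The authors deposited raw counts per gene symbol in 1 table. The submitters' processing notes name STAR 2.7.8a, limma 3.36.160 and GRCm38 without their roles. The annotation, strand setting and treatment of reads matching several gene copies were stated in none of the sources used. Members with processed pseudogenes or near-identical copies are uncertain to that extent.

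Genes were kept by filterByExpr (minimum count 10, minimum total 15), scaled by TMM and fitted in 1 model of 4 groups with edgeR 4.0.16 (robust quasi-likelihood, R 4.3.3). P-values were adjusted by the Benjamini-Hochberg method over all genes tested, with a threshold of 0.05. SEs are the fold change divided by the square root of F, and log2 CPM used a prior count of 2. DESeq2 1.42.0 and limma-voom (limma 3.58.1) were alternatives, as were other scalings, filters, covariates, subsets and leaving out each library. Isoform ratios were tested by two-sided exact permutation (scipy) over libraries. The edgeR test was tried on simulated counts and the permutation test on small fixed example values. Transcript and coding lengths of the principal protein-coding transcripts came from GENCODE M21 on GRCm38 (24706 of 25239 symbols matched) and promoters from RefSeq.

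The members and gene lists were chosen with earlier results of these data known. Genes named are a fixed set of 18 subunit genes, members called or with the 3 smallest p in a contrast, the highest and lowest level per complex, members failing the filter, and called genes of the pathway lists. Pairs of replicate libraries all differed beyond counting noise (chi-square over degrees of freedom 7.9 to 98.1 for 38 pairs).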

Additional observations from a re-analysis of the deposited data

Results flagged for a closer look

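In 4 cases a single library lay far from the others of their group, out of 75 groups of 5 or 6 libraries examined over 25 measures, and chance alone flags about 1 group in 20. Wt_PBS replicate 1 had a summed complex III level of 7464 CPM, where the next library had 6620 and the lowest 6413, and a Uqcrfs1 level of 1081 CPM, where the next had 898.8. Mcm8Ko_LCWE replicate 4 had a ratio of complex IV to ATP synthase of 0.5165, where the next library had 0.4593. Mcm8Ko_LCWE replicate 3 had a Cox7a2 level of 385.1 CPM, where the next had 314.9. Wt_LCWE replicates 2 and 3, which stand apart together, do not meet this rule because each is the other's nearest neighbour. No explanation was tested.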

How the results depend on the processing

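The count of members called was 0 in each of the 5 contrasts under every other scaling, filter, tool and covariate and without each of the 19 libraries in turn. The exceptions were the subset with sample numbers 100 to under 200, where 25 were called for LCWE in wild type and 1 for the interaction. In that subset the medians were 0.522 (complex III), 0.571 (complex IV) and 0.498 (ATP synthase) for LCWE in wild type, -0.548 for complex IV between the genotypes under LCWE, and -0.432, -0.584 and -0.440 for the interaction. Without Wt_LCWE replicates 2 and 3, a choice made after seeing the data, the same 3 medians were 0.052, 0.035 and 0.060 for LCWE in wild type, -0.091 (complex III) and -0.039 (complex IV) between the genotypes under LCWE, and 0.016, 0.041 and 0.044 for the interaction. The cause was not tested. Without each library in turn the medians for LCWE in wild type lay between 0.154 and 0.390, lowest without Wt_LCWE replicate 3, and those between the genotypes under LCWE between -0.384 and -0.164, nearest 0 without the same library.

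The value of Cox7a1 for LCWE in wild type, 0.03 and not called, changed sign to -0.031 with library totals alone and to -0.104 without the pair, and lay between -0.032 and 0.101 without each library in turn. The isoform balance of Cox7a1 to Cox7a2 between the genotypes under LCWE changed from -0.30 to 0.023 within sample numbers 100 to under 200 and to -0.484 without the pair, and that of Cox8b to Cox8a between the genotypes under PBS lay between -0.046 and 0.174 without each library. Isoform tests against Mcm8Ko_PBS could not be fitted in that subset, which has 1 such library. Cox7a1 between the genotypes under LCWE stayed between -0.634 and -0.436 over 30 alternatives, with adjusted p from 0.0927 to 1.0. The higher Yy1 under PBS lost its call under 19 alternatives and the lower Yy1 with LCWE in the knockout under 6, out of 30 each, with adjusted p from 0.00036 to 0.544 and from 0.00027 to 0.243. No paired analysis was possible because the replicate numbers were given in accession order and the labels give none that groups share. Depth, at least 11853233 counts per library, limits Cox6b2, Cox7b2 and Cox8c.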
